A study of Mus musculus with 4 samples.

Results

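Aldoa, Aldoc, Tpi1, Gapdh, Pgk1, Eno1, Eno2, Pkm, Ldha and Ldhb, 10 of the 41388 genes counted, encode enzymes of glycolysis from aldolase to lactate dehydrogenase. They were taken by symbol as parent genes, without their pseudogene copies. They had been chosen by measured values: their counts between libraries whose pools were described as P2 mouse and as embryo. Their differences in that contrast are therefore given below as a description, with no test.

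The RNA came from flow-sorted, EGFP-positive cells of mouse dorsal root ganglia, in which EGFP reports Ret, a receptor tyrosine kinase gene of many sensory neurons. All 4 libraries carried the stage label P2 (postnatal day 2), the strain C57BL/6, the ganglion levels T11-S1 and the genotype label Tg(Ret-EGFP)SJ/, whereas the design text describes heterozygotes with EGFP inserted at the Ret locus, so no library is without the reporter. Each library came from the pooled ganglia of 1 animal. By the label of pool size the 20 ganglia of male B and the 20 of male C were each from an embryo, and the 20 of male A and the 40 of female A were each from a P2 mouse. The first 2 libraries are called the embryo pair and the others the P2-mouse pair, and values are always given for B before C and for the male before the female. Age, preparation and mere wording of the labels cannot be told apart as the meaning of this description. The 2 animals of the P2-mouse pair differ in sex, and no female library had the embryo description.

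Glycolysis splits glucose into pyruvate in the cytosol with a net gain of ATP, and lactate dehydrogenase turns pyruvate into lactate and regenerates NAD+. Several steps have isozymes with tissue preferences: aldolase C and enolase 2 are known as the neural forms, and enolase 2 is also called neuron-specific enolase. In peripheral ganglia both neurons and glia use the pathway, and transcription of many of its genes can be driven by hypoxia-inducible factors.

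The libraries held between 17388493 and 28066448 gene counts. A level is given as CPM scaled by TMM factors (scaled CPM), and only levels per kilobase of exon are compared between genes. Exon length covers all exons counted for a gene, so it can exceed the length of any transcript. It was 5379 bases for Eno1 and 4705 for Eno2, whose longest transcripts have 2027 and 2795. Shares and orders between genes depend on this length and were not computed by transcript length. The reads carried no molecular identifiers, so floors cover counting error only, and 3 counts corresponded to between 0.107 and 0.173 CPM before scaling. Of 9 sensory neuron markers none was at 0 in any library. The same held for the listed markers of satellite glia, myelinating Schwann cells, fibroblasts and endothelial cells, so it does not check the sorted cell type.

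The coding sequences of the 10 genes differ in how far they can be told from other annotated genes, which bears on every value of Gapdh and Pgk1. Of all 50-base words in the coding sequence, the share found in another GENCODE M21 gene was 99.3% for Pgk1, 93.5% for Gapdh, 75.0% for Eno1 and 53.6% for Pkm. It was 33.4% for Ldhb, 25.1% for Ldha, 13.7% for Tpi1 and 12.4% for Aldoa, and 0% for Aldoc and Eno2. Only 9 of 1211 words were unique to Pgk1 and 67 of 1035 to Gapdh. The Gapdh words were shared with 221 genes, 212 of them pseudogenes. The word of the Gapdh coding sequence that most genes hold (coding bases 493 to 542 of 1077, in 84 other genes) is shown with the same stretch of its 3 pseudogenes with the highest counts. Capitals mark bases that differ from Gapdh.
Gapdh: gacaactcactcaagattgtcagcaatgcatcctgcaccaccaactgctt
Gm5069: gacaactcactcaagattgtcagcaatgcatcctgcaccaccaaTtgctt
3000002C10Rik: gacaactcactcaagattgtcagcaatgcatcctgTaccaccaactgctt
Gm13882: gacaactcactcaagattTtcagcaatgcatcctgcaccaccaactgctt
Each of these copies differed from the parent by 1 base in the stretch. For Eno1 the word that most genes hold (coding bases 445 to 494 of 1302, in 5 other genes) was identical in the pseudogene Gm4735, and the pseudogene Gm16103 differed by 2 bases, given in capitals.
Eno1: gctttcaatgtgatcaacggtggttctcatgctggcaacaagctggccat
Gm4735: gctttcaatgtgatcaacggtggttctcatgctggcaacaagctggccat
Gm16103: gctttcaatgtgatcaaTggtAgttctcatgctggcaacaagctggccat
No source used here states how reads that match several genes were counted.

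Every enzyme was lower in both libraries of the P2-mouse pair than in both of the embryo pair. The median log2 difference of the 10 was -1.16, beside 0.02 for the 15568 genes tested. The largest differences were those of Eno2 and Aldoa and the smallest those of Pgk1 and Ldhb. That contrast chose the genes, so nothing is read from the shared direction. In bulk RNA, fewer cells of a type and less RNA per cell cannot be told apart.

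**Figure D1:**
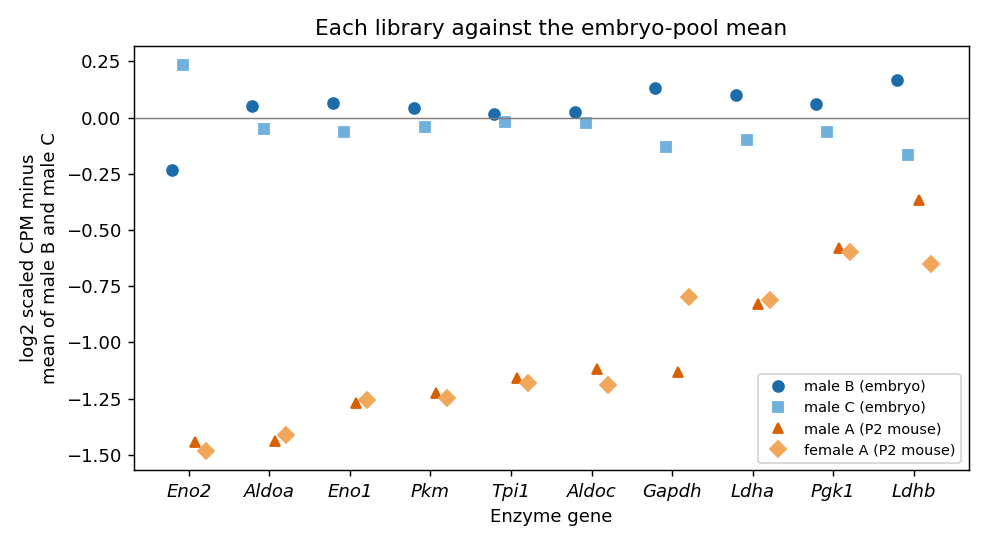
Log2 scaled CPM of each enzyme (x axis) in each library, minus the mean of male B and male C (y axis, log2 units). Each symbol is 1 library. Both P2-mouse libraries lie below both embryo libraries for all 10 enzymes, and the smallest gap is that of Ldhb.

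Aldolase cleaves fructose 1,6-bisphosphate into the 2 triose phosphates. Aldoa (ENSMUSG00000030695, chr7:126795234-126800751, minus strand, GRCm38), the ubiquitous and muscle aldolase, stood at 2997 and 2799 scaled CPM in the embryo pair and at 1069 and 1090 in the P2-mouse pair. The embryo pair lay at 2.69 times the P2-mouse pair, a log2 difference of -1.42 beside a within-pair SD of 0.0513. Aldoc (ENSMUSG00000017390, chr11:78322968-78327781, plus strand), the brain aldolase, stood at 256 and 247 scaled CPM in the embryo pair and at 116 and 110 in the P2-mouse pair. Its log2 difference was -1.15 (within-pair SD 0.0441), so the lowest embryo library was 2.13 times the highest P2-mouse library, against 2.57 times for Aldoa. Aldoc made up 6.73% and 6.94% of the sum of both aldolases per kilobase in the embryo pair and 8.38% and 7.87% in the P2-mouse pair. Aldoa was the main aldolase in every library, and the Aldoc share was somewhat higher in both P2-mouse libraries.

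Triose phosphate isomerase interconverts the 2 products of aldolase. Tpi1 (ENSMUSG00000023456, chr6:124810586-124814296, minus strand) stood at 390 and 381 scaled CPM in the embryo pair and at 173 and 170 in the P2-mouse pair. Its log2 difference was -1.17 with a within-pair SD of 0.0214, the smallest spread of the 10 enzymes. Of its 2209 exon bases, 34 also belong to exons of Spsb2 on the opposite strand, and no other enzyme shared exon bases with a gene of the files.

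Glyceraldehyde 3-phosphate dehydrogenase, which reduces NAD+, and phosphoglycerate kinase, which makes the first ATP of the lower pathway, were the least counted of the 10. Gapdh (ENSMUSG00000057666, chr6:125161853-125166467, minus strand) stood at 12.8 and 10.7 scaled CPM in the embryo pair and at 5.35 and 6.73 in the P2-mouse pair, from 280, 256, 96 and 198 counts. Its log2 difference was -0.97 (within-pair SD 0.213), and per kilobase it ranked 7882 of 15568 tested genes. Pgk1 (ENSMUSG00000062070, chrX:106187100-106203699, plus strand) stood at 19.3 and 17.7 scaled CPM in the embryo pair and at 12.4 and 12.2 in the P2-mouse pair. The embryo pair lay at 1.50 times the P2-mouse pair for Pgk1 (log2 difference -0.59, within-pair SD 0.0631), and its counts were between 222 and 423.

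Both are often used as reference genes, and their counts here may not stand for their transcript levels; that part was not tested. The 191 annotated Gapdh pseudogenes in the files, 187 of them with a count, held 3285 and 2905 counts in the embryo pair and 1059 and 1805 in the P2-mouse pair. The parent thus held between 7.85% and 9.89% of the counts of parent and pseudogenes. Gm5069 (448 counts in all libraries together), 3000002C10Rik (346) and Gm13882 (230) held the most. The pseudogenes summed to 151 and 121 scaled CPM in the embryo pair and to 59.0 and 61.4 in the P2-mouse pair, a log2 difference of -1.17 (within-pair SD 0.159) beside -0.97 for the parent. Parent and pseudogene counts were both lower in the P2-mouse pair. The Pgk1 copies held few counts: Pgk1-rs7 had 6 and Gm5537 had 0. Of the protein-coding relatives, Aldoart1, which shares words with Aldoa, had 282 counts and Eno1b, which shares words with Eno1, had 123. Peli2, a protein-coding gene that holds 84 of the Gapdh words, had 4503 counts in all, at 15.5 and 19.1 CPM in the embryo pair and 83.9 and 79.0 CPM in the P2-mouse pair, the opposite direction to Gapdh. Pgk1 was thus low while its copies in the files held few counts. Pgam1, the phosphoglycerate mutase of the step after Pgk1 and no member of the 10, shared 100% of its coding words and stood at 4.38 scaled CPM on average.

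**Figure D2:**
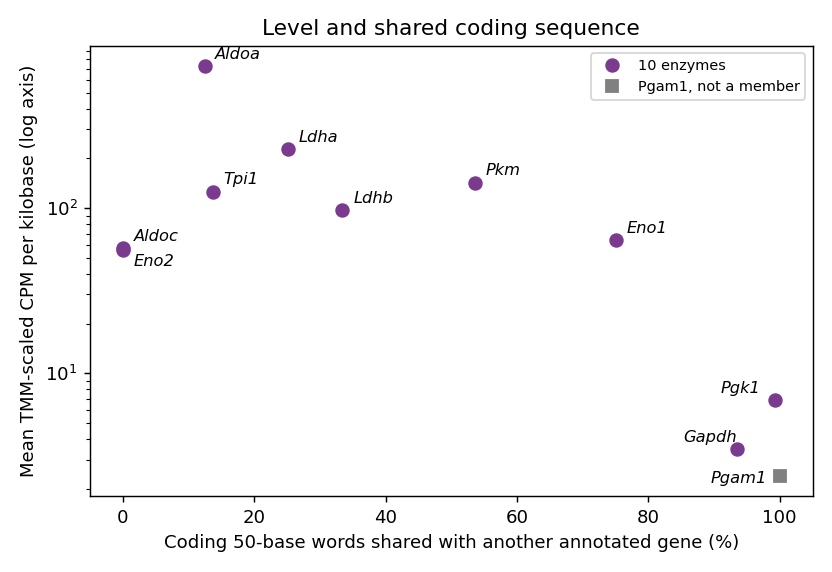
Mean scaled CPM per kilobase over the 4 libraries (y axis, log scale) against the share of 50-base coding words held by another annotated gene (x axis, percent). Each point is 1 gene, and Gapdh, Pgk1 and Pgam1 lie lowest, at shares of 93.5%, 99.3% and 100%, while Eno1, at 75.0%, lies near Eno2 and Aldoc, at 0%.

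Enolase forms phosphoenolpyruvate. Eno1 (ENSMUSG00000063524, chr4:150236721-150248879, plus strand), the ubiquitous enolase, stood at 509 and 466 scaled CPM in the embryo pair and at 202 and 204 in the P2-mouse pair, a log2 difference of -1.26 (within-pair SD 0.0642). Eno2 (ENSMUSG00000004267, chr6:124760053-124769673, minus strand) stood at 336 and 464 scaled CPM in the embryo pair and at 145 and 141 in the P2-mouse pair. Its log2 difference of -1.46 was the largest of the 10, and its within-pair SD of 0.234 was also the largest. That spread lay in the embryo pair: male C exceeded male B by 0.47 on the log2 scale for Eno2, and was below it for each of the other 9. Eno2 held 43.0% and 53.2% of the sum of both enolases per kilobase in the embryo pair and 45.0% and 44.2% in the P2-mouse pair. In CPM without length these shares were 39.7% and 49.9%, and 41.8% and 40.9%. By either measure the library apart from the others was male C, not the P2-mouse pair.

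Pyruvate kinase makes pyruvate and the second ATP of the lower pathway. Pkm (ENSMUSG00000032294, chr9:59656368-59679375, plus strand), whose splice forms PKM1 and PKM2 the gene counts do not tell apart, stood at 536 and 506 scaled CPM in the embryo pair and at 223 and 219 in the P2-mouse pair. Its log2 difference was -1.24 with a within-pair SD of 0.0432. Pkm, Eno1, Tpi1 and Aldoc all lay between 41.6% and 44.9% of the embryo pair in the P2-mouse pair.

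The lactate dehydrogenase subunits had smaller differences. Ldha (ENSMUSG00000063229, chr7:46841475-46855627, plus strand), the muscle-type subunit, stood at 931 and 812 scaled CPM in the embryo pair and at 489 and 496 in the P2-mouse pair, a log2 difference of -0.82 (within-pair SD 0.0989). Ldhb (ENSMUSG00000030246, chr6:142490249-142507957, minus strand), the heart-type subunit, stood at 201 and 159 scaled CPM in the embryo pair and at 138 and 114 in the P2-mouse pair. The gap of Ldhb between the pairs was small, since its lowest embryo library was 1.15 times its highest P2-mouse library. Its log2 difference was -0.51 beside a within-pair SD of 0.217. The share of Ldhb in the pair of subunits per kilobase was 29.0% and 27.2% in the embryo pair and 35.0% and 30.4% in the P2-mouse pair. Its mean over the libraries was 30.4% per kilobase and 18.7% in CPM without length. Ldha was the main subunit in every library.

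**Figure D3:**
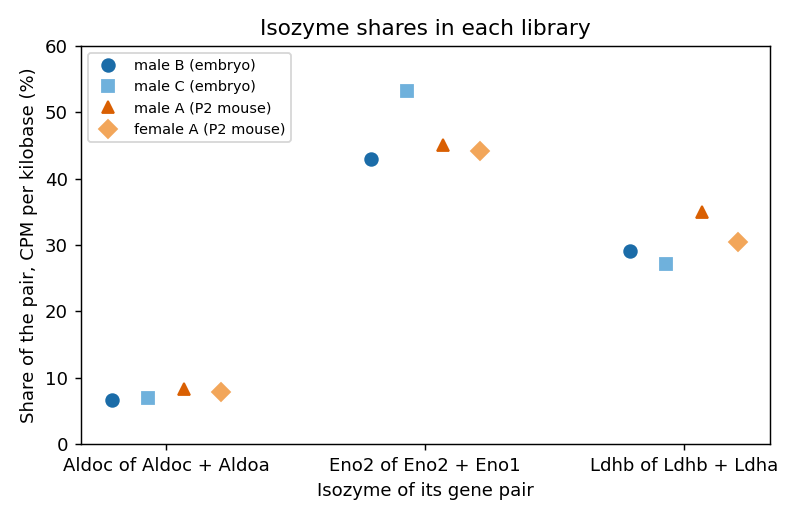
Share of Aldoc, Eno2 and Ldhb in the sum with their partner gene (y axis, percent of CPM per kilobase) in each library. Each symbol is 1 library, and male C has the highest Eno2 share, 53.2%, with the others between 43.0% and 45.0%.

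Per kilobase of exon, Aldoa stood far above the other enzymes, at 722 ± 382 scaled CPM per kilobase (SD, n = 4 libraries), and ranked 48 of 15568 tested genes. Ldha followed at 229 ± 75.2, Pkm at 143 ± 66.7, Tpi1 at 126 ± 56.0 and Ldhb at 97.5 ± 23.4 scaled CPM per kilobase. Eno1 stood at 64.2 ± 30.7, Eno2 at 57.7 ± 33.4 and Aldoc at 55.9 ± 24.6, and Pgk1 and Gapdh came last at 6.85 ± 1.62 and 3.47 ± 1.35 scaled CPM per kilobase. The SDs hold the difference between the pairs. Between neighbours in this order the ranges over the libraries were apart only for Aldoa and Ldha, Aldoc and Pgk1, and Pgk1 and Gapdh. Eno2 and Aldoc were in the stated order in 1 of 4 libraries. Ordered by scaled CPM without length, 5 of the 10 kept their place.

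The 10 enzymes summed to 6188 and 5862 scaled CPM in the embryo pair and to 2573 and 2563 in the P2-mouse pair, which was 0.595%, 0.563%, 0.266% and 0.269% of the gene counts. Aldoa alone held 48.4%, 47.8%, 41.5% and 42.5% of the sum. Without Aldoa the sums were 3190, 3063, 1504 and 1473 scaled CPM. That these were higher in both embryo libraries was set in advance, since each enzyme was.

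**Figure D4:**
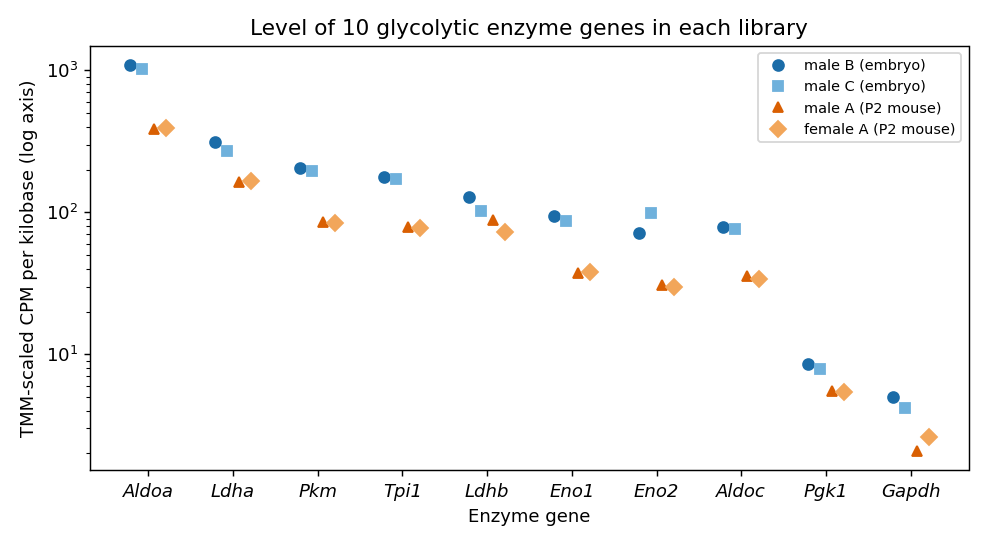
Scaled CPM per kilobase of exon (y axis, log scale) of the 10 enzyme genes in order of their mean (x axis), 1 symbol per library. Aldoa lies highest, with a mean of 722, and Gapdh lowest, with a mean of 3.47.

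The study's title names male or female ganglia. The contrast of sex did not itself choose the enzymes. It overlaps with the contrast that did, since the embryo pair are males and the female is 1 of the P2-mouse pair. The spread among the males also holds the difference between the pools, so an absence of calls between the sexes says little. The median fitted coefficient of variation between libraries was 0.373 in the fit of sex and 0.163 in that of the pairs. None of the 10 was called between female A and the 3 males by the edgeR quasi-likelihood test, which assumed that the single female varies like the males. Their log2 fold changes lay between -1.16 (Eno2, SE 0.67) and -0.43 (Pgk1, SE 0.44), with an adjusted p of 0.951 for each. The background was 0% of 16708 genes, with 129 genes at an unadjusted p under 0.05, 0 called by limma-voom and 5 by DESeq2. In a fit that holds the pool description, so that female A is set against male A, 0 of the 10 were called where 0.0239% of all genes were. The log2 fold changes then lay between -0.28 (Ldhb, SE 0.20) and 0.33 (Gapdh, SE 0.34), with an adjusted p of 1 for each in edgeR. For the other 8 they lay between -0.07 (Aldoc) and 0.03 (Aldoa).

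Among the 20 other listed enzymes of glycolysis, 14 were tested between the pairs with the edgeR quasi-likelihood test, at an adjusted p under 0.05 over all genes. Of these, 7 were called lower and 0 higher, with a median log2 difference of -0.72, where 20.0% of all tested genes were called lower and 22.3% higher. With offsets for GC content and length 6 were called lower, where 20.3% of all tested genes were. In the edgeR fit over all genes Gpi1, the glucose phosphate isomerase, was lower by a log2 difference of -1.32 (SE 0.09, adjusted p = 0.000141), and Hk1, the main hexokinase of brain, by -1.06 (SE 0.11, adjusted p = 0.000343). The 3 subunits of phosphofructokinase were all lower: Pfkl by -1.72, Pfkm by -0.94 and Pfkp by -0.71, with adjusted p-values of 0.000738, 0.00037 and 0.00061. Pfkp was the most abundant of the list, at 981 and 888 scaled CPM in the embryo pair and 575 and 570 in the P2-mouse pair. Bpgm, a mutase of bisphosphoglycerate, was also called, with a log2 difference of -0.73, a call lost with sex as a term (adjusted p = 0.0555 in edgeR). Hk2, at 0.90 with an adjusted p of 0.0759, and Pgam1, at -0.09 with an adjusted p of 0.834, were not called. The 6 untested members were Hk3, Hkdc1, Gapdhs, Pgk2, Pklr and Ldhc, and Pgk2 was at 0 in every library.

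Around glycolysis, the citric acid cycle list had the most genes called: 14 of 16 were lower and 1 was higher, with a median log2 difference of -0.73, beside 20.0% lower and 22.3% higher over all tested genes. Mdh2, the mitochondrial malate dehydrogenase and the most abundant of them, stood at 1543 and 1418 scaled CPM in the embryo pair and at 766 and 737 in the P2-mouse pair. Its log2 difference was -0.98 (edgeR adjusted p = 0.000194), and those of the succinate dehydrogenase subunits Sdhc, Sdhd and Sdhb were -1.05, -0.99 and -0.90. Idh3a and the citrate synthase gene Cs were lower by -0.54 and -0.58. Of the genes of this list called lower, Sdha, Fh1 and Dlst lost their call with sex as a term and without female A. Dlst also lost it without male A. Sucla2, a subunit of the ATP-forming succinyl-CoA synthetase, was higher by 0.46 (edgeR adjusted p = 0.023), a call lost without male A, without female A, with sex as a term and with the GC and length offsets. In the pentose phosphate pathway, which branches off at glucose 6-phosphate, 4 of 7 were lower and 0 higher (median -0.86), beside the same shares over all genes, among them Tkt at -1.12, Taldo1 at -0.89, Pgd at -0.87 and G6pdx at -0.87. Of the cytosolic NADH shuttles, 4 of 9 were lower and 1 higher (median -0.29), again beside 20.0% and 22.3% over all genes: Got2, Mdh1, Got1 and Slc25a12 were lower by -1.05, -1.02, -0.82 and -0.61, and Gpd2 was higher by 0.50, while Gpd1l at -0.18 was not called. The Gpd2 call was lost without male C, without male A, without female A, with sex as a term and with the offsets. Got2 is uncertain, since it shares 74.7% of its coding words with other genes.

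The genes around pyruvate and transport held calls in both directions. Of the genes for pyruvate entry into mitochondria 4 of 13 were lower and 2 higher, with a median of 0.22, beside 20.0% lower and 22.3% higher over all tested genes. With the GC and length offsets 5 were lower and 1 higher and the median was -0.18, the reverse sign. With sex as a term 2 were lower and 0 higher. Without female A 2 were lower and 1 higher, without male A 0 were higher, and without male C 4 were higher, as they were without a filter. Pdp2, a phosphatase that activates pyruvate dehydrogenase, was lower by -1.05, the pyruvate carrier subunit Mpc1 by -0.90, Pdhb by -0.45 and Pdhx by -0.34, whereas Dld and the inhibitory kinase Pdk3 were higher by 0.40 and 0.69, and Pdha1 at -0.18 was not called. The calls of Dld, Pdk3 and Pdhx were lost without male A, those of Pdhb, Pdhx and Pdk3 without female A, and those of all 4 with sex as a term. The call of Dld was also lost without male C and that of Pdhx without male B. With the offsets Dld was at -0.09, the reverse direction. Of the genes for glucose and lactate transport 2 of 9 were lower and 1 higher (median -0.18), shares near the 20.0% of all genes called lower and below the 22.3% called higher. Without male B 5 of the 9 were lower, without male C 2 were higher, and with the offsets 4 were lower and 0 higher with a median of -0.51. The glucose transporters Slc2a1 and Slc2a3 were lower by -0.79 and -0.51, and the monocarboxylate transporter Slc16a1 was higher by 0.90, or 0.33 with the offsets (edgeR adjusted p = 0.0845). Emb at -0.19 was not called. Bsg, a chaperone of these transporters, differed within the embryo pair, at 125 and 511 scaled CPM, and was not called. Beside the same shares over all genes, of the phosphofructokinase regulators 2 of 5 were lower and 0 higher (median -0.49), namely Pfkfb4 at -1.02 and Tigar at -0.80, while Pfkfb3 at 0.25 and Pfkfb2 at 0.05 were not called. Without male B 1 of the 5 was called higher.

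**Figure D5:**
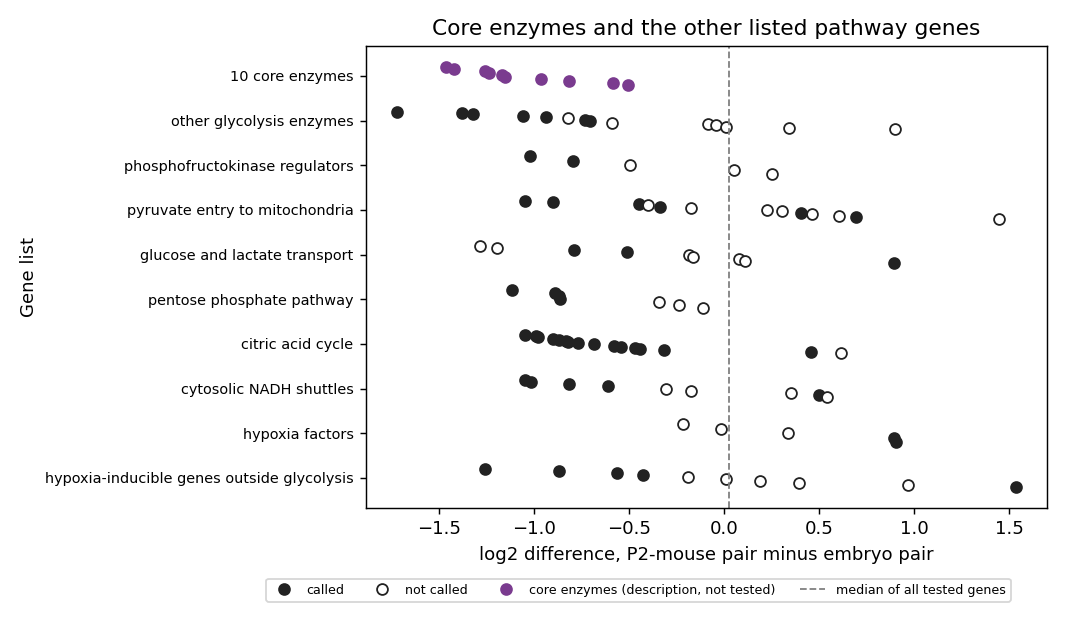
Log2 difference between the P2-mouse pair and the embryo pair (x axis, log2 units) for each tested gene of each list (y axis). Filled black points passed the test, open points did not, the 10 core enzymes in purple are a description, and the dashed line is the median of all tested genes, 0.02. The citric acid cycle row holds 14 genes called lower and 1 called higher.

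None of the 5 hypoxia factor genes was called lower, beside 20.0% of all tested genes, and the list is too short to tell these apart. Of these 5, 2 were higher (median 0.35), beside 22.3% of all tested genes: Hif1a, the oxygen-regulated subunit, by 0.90 (edgeR adjusted p = 0.000566) and its partner Arnt by 0.89 (adjusted p = 0.00376), while Vhl at 0.34 and Egln1 at -0.02 were not called. With offsets for GC content and length, Hif1a was at 0.22 with an edgeR adjusted p of 0.145, and without male A the adjusted p of Arnt was 0.0528. Of 12 hypoxia-inducible genes outside glycolysis 10 were tested, of which 4 were lower and 1 higher (median -0.10), beside 20.0% lower and 22.3% higher over all tested genes. Without male A, without female A, with sex as a term and with the offsets 2 were lower, and without male C 2 were higher. P4ha2, Ankrd37, Higd1a and Bnip3 were lower by -1.26, -0.87, -0.57 and -0.43, and the histone demethylase gene Kdm3a was higher by 1.53 (edgeR adjusted p = 0.000703), while Ndrg1 at 0.19 and P4ha1 at 0.39 were not called. The calls of Ankrd37 and Bnip3 were lost without male A, without female A and with sex as a term, and those of Ankrd37 and Higd1a with the offsets. Bnip3 and Higd1a share 76.8% and 54.0% of their coding words with other genes and are uncertain.

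The promoters of the 10 enzymes were read for the binding core of these factors, as a description. All 10 genes matched RefSeq (GRCm38.p6), which gives 17 starts for them, and the 250 bases before each start were searched on both strands. The core ACGTG lay in 5 of 17 windows, of 4 of 10 enzymes (Aldoa, Ldha, Pgk1 and Pkm), and in 16.6% of all 32851 windows. The E-box CACGTG, which contains that core, lay in 1 of 17 windows (Ldha) and 6.02% of all. The GC box GGGCGG lay in 9 of 17 windows and 32.7% of all, and TATAAA in 1 of 17 (Eno2) and 12.4% of all. Windows of 1 gene can overlap. The same core was thus counted in more than 1 Aldoa window, and the same GC boxes in more than 1 window of Aldoa and of Eno1. The shares of all windows are per window and not per gene. Windows that hold no annotated exon are shown for Aldoa (chr7:126799255-126799504, minus strand), Ldha (chr7:46845554-46845803, plus strand) and Pgk1 (chrX:106186850-106187099, plus strand), which hold the core, and for Ldhb (chr6:142507958-142508207, minus strand), which had the smallest difference and holds none of the 4 motifs. The only Gapdh window, not shown, also holds no annotated exon and none of the 4 motifs, and the log2 difference of Gapdh was -0.97. Capitals mark the core or its reverse complement.
Aldoa: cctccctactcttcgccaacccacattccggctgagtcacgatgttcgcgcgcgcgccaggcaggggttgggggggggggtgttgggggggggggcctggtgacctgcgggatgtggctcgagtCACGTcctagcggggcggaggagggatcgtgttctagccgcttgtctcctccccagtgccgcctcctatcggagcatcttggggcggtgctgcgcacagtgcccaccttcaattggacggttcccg
Ldha: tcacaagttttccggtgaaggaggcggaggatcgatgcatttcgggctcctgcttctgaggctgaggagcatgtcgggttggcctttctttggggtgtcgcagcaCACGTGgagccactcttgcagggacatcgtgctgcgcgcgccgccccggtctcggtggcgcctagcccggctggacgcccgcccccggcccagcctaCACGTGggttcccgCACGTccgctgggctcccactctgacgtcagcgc
Pgk1: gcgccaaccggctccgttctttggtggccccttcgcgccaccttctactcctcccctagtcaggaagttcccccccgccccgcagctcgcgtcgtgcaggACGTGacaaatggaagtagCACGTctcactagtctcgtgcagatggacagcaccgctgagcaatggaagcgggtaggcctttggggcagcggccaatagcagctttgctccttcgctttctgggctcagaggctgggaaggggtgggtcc
Ldhb: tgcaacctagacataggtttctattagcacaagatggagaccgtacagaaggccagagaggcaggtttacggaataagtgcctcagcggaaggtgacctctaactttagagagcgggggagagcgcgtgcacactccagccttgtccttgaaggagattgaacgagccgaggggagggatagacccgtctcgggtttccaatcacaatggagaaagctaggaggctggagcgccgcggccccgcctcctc
The log2 differences of the enzymes whose windows hold the core ranged from -1.42 (Aldoa) to -0.59 (Pgk1). Those of the other 6 ranged from -1.46 (Eno2) to -0.51 (Ldhb). Both ranges come from the contrast that chose the enzymes, and a part of these factors in the differences was not tested. A match of letters is a description and not a site.

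Markers of several cell types moved with the pool description. The 9 sensory neuron markers summed to 13570 and 12660 scaled CPM in the embryo pair and 7049 and 7314 in the P2-mouse pair, and 6 of 9 were called lower and 0 higher, beside 20.0% lower and 22.3% higher over all tested genes, the shares that hold for each marker list here. Of the 9 satellite glia markers 6 were higher and 2 lower, and their sums were 669 and 1071 in the embryo pair against 1588 and 1332. Of the 7 markers of myelinating Schwann cells 6 were higher (2988 and 2971 against 6885 and 4208), and of the 6 fibroblast markers 5 were higher (307 and 331 against 1466 and 1311). Erythroid markers, of which 3 of 5 tested were higher, summed to 17.5 and 5.47 scaled CPM against 55.0 and 42.0. Endothelial markers, of which 2 of 3 tested were higher, summed to 3.95 and 3.80 against 5.29 and 12.3. The sums of skeletal muscle markers were 10.7 and 10.0 against 4.73 and 4.96, with the 1 tested marker lower, and macrophage markers summed to at most 4.01 with the 1 tested marker not called. With offsets for GC content and length, 4 fibroblast markers were called higher and 1 lower. The latter was Dcn, at 0.28 without offsets and -0.59 with them. Sensory neuron markers then had 7 called lower, endothelial markers 1 higher, erythroid markers 4 higher and skeletal muscle markers 0 lower. The numbers for satellite glia and myelinating Schwann cells stayed the same. Among the markers at 0 in at least 1 library were C1qa, Myh8, Ckm and Myl1, and no marker was at 0 in all. The part of these cells in the differences of the enzymes was not tested.

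GC content also moved with the pool description. The longest transcripts of the enzymes had between 49.7% (Pgk1) and 57.7% (Pkm) GC, above the 49.3% median of tested genes. The 5996 tested genes within the range of the enzymes had a median log2 difference of -0.30. With offsets per library for GC content and length, the median of the 10 enzymes was -0.78, which is again a description of the contrast that chose them.

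The 5 genes outside the enzymes whose profile over the 4 libraries lay nearest to the mean profile of the 10, among 3857 with a mean of at least 50 CPM, were Napa, Bad, Wrb, Ciapin1 and Smyd5. Their Euclidean distances in centred log2 CPM were 0.0102, 0.0156, 0.0172, 0.0264 and 0.0308. Napa, which encodes the vesicle fusion adaptor alpha-SNAP, stood at 818 and 771 scaled CPM in the embryo pair and 384 and 383 in the P2-mouse pair. Of the enzymes themselves Aldoc (0.109) and Tpi1 (0.115) lay nearest and Eno2 (0.562) and Ldhb (0.609) farthest. With 4 libraries this likeness describes mainly the difference between the pairs.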

How the data were processed

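RNA of sorted cells was sequenced in 4 libraries. The counts that the authors deposited are whole reads assigned to genes. The submitters' processing notes name featureCounts 1.4.5, Subread and GRCm38.p2. The deposited CPM values equal each count scaled by the library's sum of gene counts, and the deposited RPKM values, per the file headers, divide these by exon length in kilobases, as recomputed here. Not given in the sources used here are the aligner, the strand setting, the treatment of multiply matching reads and the annotation release. Symbols came from GENCODE M21 for 40254 of 41388 genes (97.3%).

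The members and lists were chosen with earlier results of these data known. Pairs, and the female against the males, were compared with the quasi-likelihood F test of edgeR 4.0.16 (R 4.3.3; TMM factors 0.961 to 1.05; filterByExpr, minimum count 10 and total 15; Benjamini-Hochberg at 0.05 over all tested genes). The SE of a fold change rests on a spread moderated across genes. Replicates are separate animals per the labels, and p-values measure the spread between these samples. Alternatives were relative log expression, a filter at a mean of 5 CPM or none, each library left out, GC and length offsets (mgcv 1.9.3), a term for sex or for pool description, DESeq2 1.42.0 and limma-voom (limma 3.58.1). Coding words of 50 bases were compared with all GENCODE M21 transcripts.

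Named genes were the 10 enzymes, the 4 most abundant members of each list and up to 4 called members a direction with the largest change, up to 3 copies of an enzyme with the highest counts, the summed markers, and the 5 nearest profiles. Bpgm, Hk2, Pgk2, Pgam1, Sdha, Fh1, Dlst, Dcn and the Eno1 copies in the sequences were named after their values were seen. A few items under this rule are not reported here.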

Additional observations from a re-analysis of the deposited data

How the results depend on the processing

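The direction of the difference between the pairs was the same for each of the 10 enzymes under each of 9 alternatives. The smallest difference was that of Ldhb, at -0.12 on the log2 scale. That contrast chose the enzymes and the alternatives reuse its libraries, so the shared direction was largely set in advance and is a description only. The median of the 10 (-1.16) was -1.05 by total counts without scaling factors and -0.777 with GC and length offsets, and it ranged from -1.19 to -1.14 with each library left out. Filters on low counts do not enter this median, which holds all 10 enzymes. In the comparison of the pairs 6584 genes were called. With sex as a term 3679 were called, and with each library left out 3616 to 6926, the lower counts being without male A (3616) and without female A (4036). In the comparison of the female with the males 0 genes were called, against 2 without a filter, 3 with GC and length offsets, 5 with DESeq2, 4 with a term for pool description and 5 to 3616 with each male left out. The enzymes called there numbered 0, and 0 to 8 with each male left out, the 8 being without male A, where sex and pool description are the same contrast and that contrast chose the enzymes. With a term for pool description the female log2 fold change of Aldoa turned to 0.0299, Gapdh to 0.334, Eno1 to 0.0139 and Ldha to 0.0202. That fit sets female A against male A, where the plain log2 differences were 0.028, 0.333, 0.012 and 0.018. The main fit also holds the embryo pair among the males. Of the levels per kilobase, 5 of the 10 enzymes kept their place in CPM. No paired analysis was possible because each library came from a separate animal and no label matches animals between the groups. Of the 49 other listed pathway genes called between the pairs, 32 kept their call under every alternative. The other 17 lost it under at least 1, and 1 of these (Dld) changed direction. The called cell type markers are not in these counts. Among them Dcn, a fibroblast marker, also changed direction, from 0.28 to -0.59 with the GC and length offsets. Counts of 96 to 280 limit the precision of Gapdh.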
